A study of Mus musculus with 20 samples.

Results

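Bile acid synthesis and transport were followed through 10 genes in mouse liver carrying growing colorectal metastases. The genes were chosen by name: Cyp7a1, Cyp8b1, Cyp27a1, Slc10a1, Abcb11, Abcc2, Slco1b2, Baat, Slc27a5 and Nr0b2. Each name matched 1 entry, so that 10 of the 54532 genes counted belong to the group, and all 10 passed the filter on low counts that left 17187 genes for testing. Their identifiers and positions on the mouse build GRCm38 are given where each gene is described.

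RNA was sequenced in bulk from 14 tissue libraries of wild-type (WT) C57BL/6 mice, with a further 6 libraries from cells sorted out of metastases. The control liver (con, 2 samples) had received normal saline and was taken at day 0. All other mice had received 1000000 MC38 cells, a colon adenocarcinoma line of the same strain, which reach the liver by the portal vein after injection into the spleen. The tissue series was made to follow the liver and its metastases as tumor content increases.

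Low tumor content (Lt) and the medium tumor content group Mt3 were sampled at day 9, with 2 samples each. The medium groups Mt2 and Mt1 were sampled at day 11, again with 2 samples each. High tumor content (Ht) was sampled at day 12 in 3 libraries, of which the study's methods call libraries 1 and 3 identical, so these were summed and Ht counts as 2 samples. The counts themselves put libraries 2 and 3 closest, with a chi-square per degree of freedom of 12.1, against 27.6 for libraries 1 and 3 and 26.7 for libraries 1 and 2. The methods report a high squared correlation for libraries 1 and 3. On log2(CPM + 1) it was 0.992 for this pair, 0.992 for libraries 1 and 2 and 0.994 for libraries 2 and 3, so neither measure sets the pair called identical apart. The methods' statement was followed, and each Ht value below rests on the sum unless said otherwise. Tumor-free liver tissue of a mouse bearing metastases at day 12 (L-con) had 1 library. From Mt2 metastases at day 11, magnetic beads gave a population positive for F4/80 and another positive for CD11b, with 3 libraries each (F4/80+ and CD11b+ cells). The labels give male mice for the tissue series and the methods give female mice. An age is stated in the methods but is not among the labels. All con samples are of day 0 and the Lt and Mt3 samples of day 9. The Mt2 and Mt1 samples are of day 11 and the Ht samples of day 12. In each comparison of tissue groups tested here, tumor content and day therefore differ together and their parts cannot be told apart. The con samples serve every comparison with con, so the comparisons are not independent of each other.

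Bile acids are made from cholesterol in hepatocytes. Cyp7a1 starts the classic route, Cyp27a1 acts in the alternative route and in side-chain oxidation, and Cyp8b1 directs the product towards cholic acid. Slc27a5 and Baat then join the acids to coenzyme A and to taurine or glycine. Abcb11 pumps bile salts across the canalicular membrane into bile, Abcc2 exports conjugates there, and Slc10a1 and Slco1b2 take bile salts and other organic anions back up from the blood. Nr0b2 encodes SHP, a repressor induced by bile acids through the receptor FXR that lowers transcription of Cyp7a1 and Cyp8b1.

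The tissue libraries held 16032085 to 18246623 counts, at which 3 reads, the detection floor used here, equal 0.164 to 0.187 CPM. The sorted-cell libraries held 17785496 to 20548370 counts, with a floor of 0.146 to 0.169 CPM. Floors and intervals cover counting error alone. Levels below are CPM after TMM scaling (trimmed mean of M values), which corrects library sizes for composition, unless another scale is named. Alb, the albumin gene and the most abundant of the hepatocyte transcripts listed below, took 8.89% and 7.72% of all counts in con and 6.80% in L-con. For Lt its share was 7.59% and 4.69%, for Mt3 6.85% and 4.84%, for Mt2 5.18% and 1.63%, and for Mt1 6.29% and 1.93%. In the 3 Ht libraries it took 0.220%, 0.393% and 0.301%. The second samples of Mt2 and Mt1 therefore stood apart from their partners with far less liver transcript, and are named below wherever a result rests on them. Fewer hepatocytes and less RNA per hepatocyte cannot be told apart in bulk tissue.

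In normal liver the group covered a wide range of abundance. Per length, as TPM averaged over both con samples, Slc27a5 was first with 894, followed by Cyp27a1 with 544, Slc10a1 with 468 and Slco1b2 with 458. Abcb11 had 373 TPM, Baat 354, Cyp8b1 337 and Abcc2 143, while the repressor Nr0b2 had 75.1 and the entry enzyme Cyp7a1 had 44.9. In Ht the order was different: Cyp27a1 came first with 39.2 TPM, Slc10a1 was ninth with 6.70 and Cyp7a1 was again last with 0.837.

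The enzymes of the first steps were high in con and scarce in Ht. Cyp7a1 (ENSMUSG00000028240, chr4:6265612-6275633) stood in con at 71.5 and 149 CPM, in L-con at 134, in Lt at 58.1 and 79.6, in Mt3 at 37.8 and 105, in Mt2 at 31.7 and 5.45, in Mt1 at 9.38 and 3.58 and in Ht at 1.10 and 0.383. Cyp8b1 (ENSMUSG00000050445, chr9:121914356-121916305) stood in con at 275 and 500 CPM, in L-con at 234, in Lt at 85.5 and 112, in Mt3 at 316 and 174, in Mt2 at 155 and 62.4, in Mt1 at 95.6 and 36.4 and in Ht at 3.62 and 2.99. For both genes the second con sample was well above the first, and Cyp8b1 was lower in both Lt samples than in both Mt3 samples of the same day. Cyp27a1 (ENSMUSG00000026170, chr1:74713574-74737892) stood in con at 656 and 738 CPM, in L-con at 547, in Lt at 465 and 369, in Mt3 at 487 and 384, in Mt2 at 351 and 105, in Mt1 at 158 and 86.0 and in Ht at 15.6 and 20.2. Its con samples lay close together and above all other samples.

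Conjugation genes were likewise scarce in Ht. Slc27a5 (ENSMUSG00000030382, chr7:12988346-12998192), the bile acid coenzyme A ligase, stood in con at 1233 and 1337 CPM, in L-con at 1262, in Lt at 928 and 662, in Mt3 at 936 and 680, in Mt2 at 762 and 156, in Mt1 at 327 and 148 and in Ht at 10.5 and 15.5. Baat (ENSMUSG00000039653, chr4:49489422-49506557), which adds the amino acid, stood in con at 388 and 423 CPM, in L-con at 362, in Lt at 310 and 222, in Mt3 at 300 and 249, in Mt2 at 195 and 53.8, in Mt1 at 117 and 52.3 and in Ht at 6.53 and 10.3. For both genes L-con was near con, and every Lt and Mt sample was below both con samples.

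Among the carriers on the blood side, Slc10a1 (ENSMUSG00000021135, chr12:80953183-80968705) stood in con at 511 and 703 CPM, in L-con at 492, in Lt at 371 and 283, in Mt3 at 370 and 314, in Mt2 at 252 and 37.5, in Mt1 at 111 and 31.7 and in Ht at 2.57 and 3.62. Slco1b2 (ENSMUSG00000030236, chr6:141629518-141686646) stood in con at 1032 and 1625 CPM, in L-con at 1236, in Lt at 870 and 708, in Mt3 at 1017 and 813, in Mt2 at 609 and 148, in Mt1 at 296 and 140 and in Ht at 18.6 and 26.8. As a fold change from con to Ht in the edgeR fit reported below, that of Slc10a1 was the largest of the 10 genes. Over 12 alternatives its log2 value reached -7.88 and that of Cyp7a1 -8.14, so this rank was not fixed.

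On the bile side, Abcb11 (ENSMUSG00000027048, chr2:69238282-69342616) stood in con at 1052 and 1209 CPM, in L-con at 1088, in Lt at 743 and 540, in Mt3 at 822 and 505, in Mt2 at 613 and 82.9, in Mt1 at 323 and 116 and in Ht at 11.9 and 22.7. Abcc2 (ENSMUSG00000025194, chr19:43782192-43840740) stood in con at 670 and 767 CPM, in L-con at 549, in Lt at 383 and 294, in Mt3 at 486 and 336, in Mt2 at 334 and 103, in Mt1 at 244 and 101 and in Ht at 15.7 and 28.8. Both pumps were lower in every sample with tumor than in con, without overlap. The repressor gene Nr0b2 (ENSMUSG00000037583, chr4:133553376-133556536) stood in con at 67.3 and 33.2 CPM, in L-con at 37.7, in Lt at 49.9 and 22.1, in Mt3 at 41.2 and 23.5, in Mt2 at 27.9 and 5.81, in Mt1 at 34.1 and 6.38 and in Ht at 0.970 and 2.51. Its Lt and Mt3 samples overlapped con, and the first Mt1 sample was above the second con sample. In each of the groups from con to Mt1 the first sample was the higher.

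By group mean, con was highest for 9 of the 10 genes, L-con being highest for Cyp7a1, and Ht was lowest for all 10. Both Ht samples were below every other sample for 10 of 10 genes, against 21.1% of all genes tested. The order in between was less sharp: Mt2 and Mt1, neighbours for 9 genes, overlapped for all 9, as did Mt3 and Lt, also neighbours for 9.

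**Figure D1:**
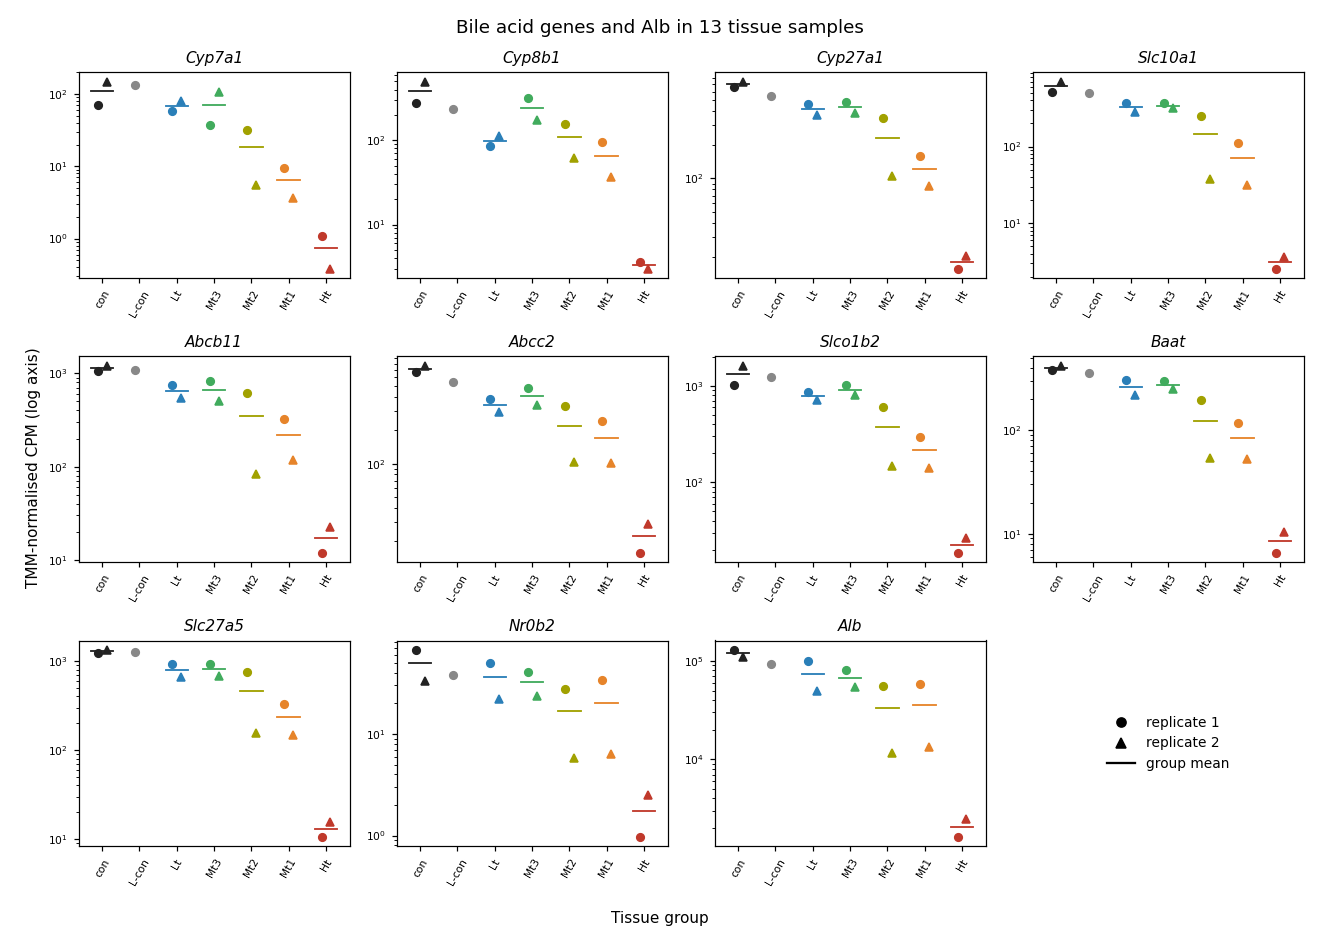
TMM-normalised CPM on log axes for the 10 bile acid genes and Alb in 13 tissue samples; circles and triangles are the first and second sample of each group and lines are group means. Every gene has its lowest samples in Ht, and the second samples of Mt2 and Mt1 lie below their partners for all 10 genes and Alb.

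From con to Ht all 10 genes fell, in the quasi-likelihood F test of edgeR, adjusted over all genes tested after Benjamini and Hochberg. A gene is called when its adjusted p is no greater than 0.05 and its log2 fold change reaches 1 in size. Called lower were 10 of 10, against 24.1% of all genes tested, and called higher 0 of 10, against 25.8%. The median log2 fold change was -5.95 for the 10 genes and 0.09 for all genes tested. The 3 largest falls were those of Slc10a1, with a log2 fold change of -7.62 (standard error, SE, 1.03; adjusted p = 0.000334, edgeR), Cyp7a1 with -7.12 (SE 1.08; adjusted p = 0.000534, edgeR) and Cyp8b1 with -6.87 (SE 0.72; adjusted p = 0.00013, edgeR). Over 12 alternatives Slc10a1 ranged from -7.88 to -6.44 and Cyp7a1 from -8.14 to -5.95, so the order of these 2 genes was not fixed. The smallest falls were those of Nr0b2 with -4.90 (SE 1.06; adjusted p = 0.00316, edgeR) and Abcc2 with -5.01 (SE 0.68; adjusted p = 0.000344, edgeR). In between were Slc27a5 (-6.63), Abcb11 (-6.03), Slco1b2 (-5.87), Baat (-5.59) and Cyp27a1 (-5.28). Alb itself had -5.85 (adjusted p = 0.00459, edgeR; 0.0606 without the first Ht sample), which lies in the middle of these values. Scaling by total counts in place of TMM moves the median of all genes to 1.28 here, and to 0.40 from con to Lt, 0.72 from con to the medium groups and 0.55 from these to Ht. All 10 genes were called lower from con to Ht under it too, while of all genes it called 2249 lower and 8822 higher, where TMM gave 4139 and 4437.

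Secreted proteins of hepatocytes fell over the same comparison. Of 13 listed genes (Alb, Ttr, Apoa1, Apoa2, Apob, Apoc3, Apoh, Trf, Ahsg, Rbp4, Serpinc1, Ambp and F2), 13 were called lower from con to Ht, against 24.1% of all genes tested. Their median log2 fold change was -5.17. Their summed level stood in con at 193390 and 168890 CPM, in L-con at 150450, in Lt at 162270 and 89891, in Mt3 at 127500 and 96368, in Mt2 at 94622 and 23646, in Mt1 at 90216 and 23377 and in Ht at 3430 and 5018. Alb was the most abundant, none was at 0, and the part of hepatocyte content in the fall of the bile acid genes was not tested beyond the ratios to Alb given below.

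From con to the medium groups, averaged over Mt3, Mt2 and Mt1, most of the bile acid genes also fell. By the quasi-likelihood test of edgeR (Benjamini-Hochberg) 8 of 10 passed as lower, against 10.3% of all genes tested, and the median log2 fold change was -1.61 against 0.08 for all genes. Cyp7a1 fell most with -2.44 (SE 0.61; adjusted p = 0.0114, edgeR), followed by Slc10a1 with -1.99 (SE 0.58; adjusted p = 0.0208, edgeR). The others called were Cyp8b1, Cyp27a1, Abcc2, Slco1b2, Baat and Slc27a5, between -1.51 and -1.68. Abcb11 had -1.61 (SE 0.60; adjusted p = 0.053, edgeR) and Nr0b2 had -1.18 (SE 0.68; adjusted p = 0.179, edgeR), and neither passed. Without either con sample the share of all genes called lower was smaller, and this count was lower too, so it hangs on the con samples. It was 9 with the second samples of Mt2 and Mt1, both poor in Alb, removed together, an alternative added after the data were seen. With the 6 medium samples treated as a single group it was 1, against 5.6% of all genes. With total-count scaling it was 5, against 3.35%. Whether the fall differs between the medium groups and Ht for a gene called in only one of these was not tested.

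From the medium groups to Ht all 10 genes fell again. By the quasi-likelihood test of edgeR (Benjamini-Hochberg) 10 of 10 passed as lower, against 13.4% of all genes tested, with a median of -4.32 against 0.00 for all genes. Slc10a1 had the largest fall, -5.62 (SE 0.91; adjusted p = 0.00861, edgeR), and Abcc2 the smallest, -3.49 (SE 0.59; adjusted p = 0.00903, edgeR). With either Ht sample left out, 0 of 10 were called by edgeR, 10 of 10 having an unadjusted p below 0.05, and 0 of all genes tested were called. A lone Ht sample is assumed to vary like the other groups. With both Ht samples in place DESeq2 called 10 of 10. Without the first Mt3 sample 9 of 10 were called, Nr0b2 not being among them.

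From con to Lt no bile acid gene passed the test, yet most lay lower. Both Lt samples were below both con samples for 8 of the 10 genes, the exceptions being Cyp7a1 and Nr0b2, against 26.7% of all genes tested. By the quasi-likelihood test of edgeR (Benjamini-Hochberg) 0 of 10 were called lower, against 0.256% of all genes, with 1 of 10 at an unadjusted p below 0.05. DESeq2 called 1, against 0.966% of all genes. The median log2 fold change was -0.75 against 0.10 for all genes. Cyp8b1 had the largest difference, -1.97 (SE 0.57; adjusted p = 0.0507, edgeR), next to Abcc2 with -1.08 (SE 0.58; adjusted p = 0.254, edgeR). Over 13 alternatives the adjusted p of Cyp8b1 ranged from 2.63e-09 to 0.235 and 7 called it lower. In the other direction 12.4% of all genes were called higher, of the bile acid genes 0.

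In tumor-free liver of a mouse with metastases the bile acid genes were measured in 1 library. None of the 10 genes was at least 2-fold below the con mean in L-con, against 4.28% of the 15666 genes above the floor, and no test was made. At that share a count of 0 does not set the 10 genes apart. The ratios to the con mean ran from 0.606 for Cyp8b1 to 1.21 for Cyp7a1, and the median log2 ratio was -0.23 against 0.00 for all genes. Cyp7a1 was at 1.87 of the first con sample and 0.897 of the second, and Nr0b2 at 0.56 and 1.135, so the direction of both hangs on the con samples. Cyp8b1 measured 234 CPM in L-con, with a 95% exact Poisson interval for counting error of 226 to 243, below both con samples. Cyp27a1, Slc10a1, Abcc2 and Baat were also below both con samples, with ratios of 0.785, 0.811, 0.765 and 0.893. That makes 5 of 10 genes, against 33.8% of all genes above the floor and 9 of 13 hepatocyte genes. Without the first con sample the ratio of Cyp8b1 was 0.469, and 1 of 10 genes was then 2-fold lower. Alb itself was at 0.786 of con. Of further genes singled out after their values were seen, Cyp39a1 was at 0.41, Slco1a4 at 0.258 and Slc10a2 at 2.19 of the con mean, and Slc51b had 5 reads beside 2 and 2 in con. Without the first con sample Slco1a4 was at 0.503, and Slc10a2 was at 3.42 without the first and at 1.61 without the second. At least 2-fold higher in L-con were 6 of 8 Kupffer cell, 3 of 4 leukocyte and 5 of 8 acute phase genes, against 10.9% of all genes above the floor, and 0 of the 10 bile acid genes. The remaining leukocyte marker, Cd3e, also named after its value was seen, had 3 reads in L-con, the floor, beside 25 and 3 in con.

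The bile acid genes were also set against Alb. The question of this comparison is whether a gene lost more than the leading hepatocyte transcript did in the same sample, and the unit is reads per 10000 Alb reads. Slc10a1 stood in con at 39.4 and 64.6, in L-con at 52.6, in Lt at 37.6 and 56.9, in Mt3 at 45.3 and 58.3, in Mt2 at 45.7 and 32.1, in Mt1 at 19.1 and 23.8 and in Ht at 15.8 and 14.5. Its ratio was below both con samples in Mt1 and Ht, in the second Mt2 sample and, by little, in the first Lt sample. Elsewhere it was within the con range. Slc27a5 stood in con at 95.2 and 123, in L-con at 135, in Lt at 93.9 and 133, in Mt3 at 115 and 126, in Mt2 at 138 and 134, in Mt1 at 56.0 and 112 and in Ht at 64.7 and 61.9. Slc10a1 and Slc27a5 were the 2 of 10 genes with both Ht ratios below both con ratios, against 1.5% of all genes tested, and were so too with the 3 Ht libraries kept apart (1.29%).

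Other genes stood at or above their con ratio to Alb in Ht. Cyp27a1 stood in con at 50.6 and 67.8 reads per 10000 Alb reads, in L-con at 58.4, in Lt at 47.1 and 74.2, in Mt3 at 59.7 and 71.5, in Mt2 at 63.8 and 90.2, in Mt1 at 27.1 and 64.6 and in Ht at 95.9 and 81.0. Abcc2 stood in con at 51.8 and 70.5, in L-con at 58.7, in Lt at 38.8 and 59.1, in Mt3 at 59.6 and 62.5, in Mt2 at 60.6 and 87.7, in Mt1 at 41.8 and 75.8 and in Ht at 96.6 and 115. Nr0b2 stood in con at 5.20 and 3.05, in L-con at 4.02, in Lt at 5.05 and 4.45, in Mt3 at 5.04 and 4.37, in Mt2 at 5.06 and 4.97, in Mt1 at 5.83 and 4.79 and in Ht at 5.96 and 10.0. These 3 genes and Baat had both Ht ratios above both con ratios. That is 4 of 10 genes, against 95.3% of all genes tested. With the 3 Ht libraries kept apart it is 3 of 10, against 94.2%, since Nr0b2 then has 7.40, 10.0 and 4.93 in Ht.

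Cyp7a1 stood in con at 5.52 and 13.7 reads per 10000 Alb reads, in L-con at 14.3, in Lt at 5.88 and 16, in Mt3 at 4.63 and 19.6, in Mt2 at 5.75 and 4.66, in Mt1 at 1.61 and 2.69 and in Ht at 6.76 and 1.53. Cyp8b1 stood in con at 21.2 and 45.9, in L-con at 25.0, in Lt at 8.65 and 22.5, in Mt3 at 38.7 and 32.4, in Mt2 at 28.1 and 53.3, in Mt1 at 16.4 and 27.3 and in Ht at 22.2 and 12.0. The ratio of Cyp7a1 was low in both Mt1 samples and mixed in Ht, and that of Cyp8b1 was lowest in the first Lt sample. Abcb11 ranged from 55.4 to 116, Slco1b2 from 50.8 to 151 and Baat from 20.1 to 46.3 over the 13 samples, with their lowest values in the first Mt1 sample. That sample held the lowest ratio of 5 of the 10 genes and was below its partner for 9 of 10. Alb took 6.29% of its counts and 1.93% of its partner's. Each other hepatocyte gene listed was lower there too, such as Ttr with 441 and 612 and Apob with 610 and 1123 reads per 10000 Alb reads. The low ratios are therefore not particular to the bile acid genes.

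**Figure D2:**
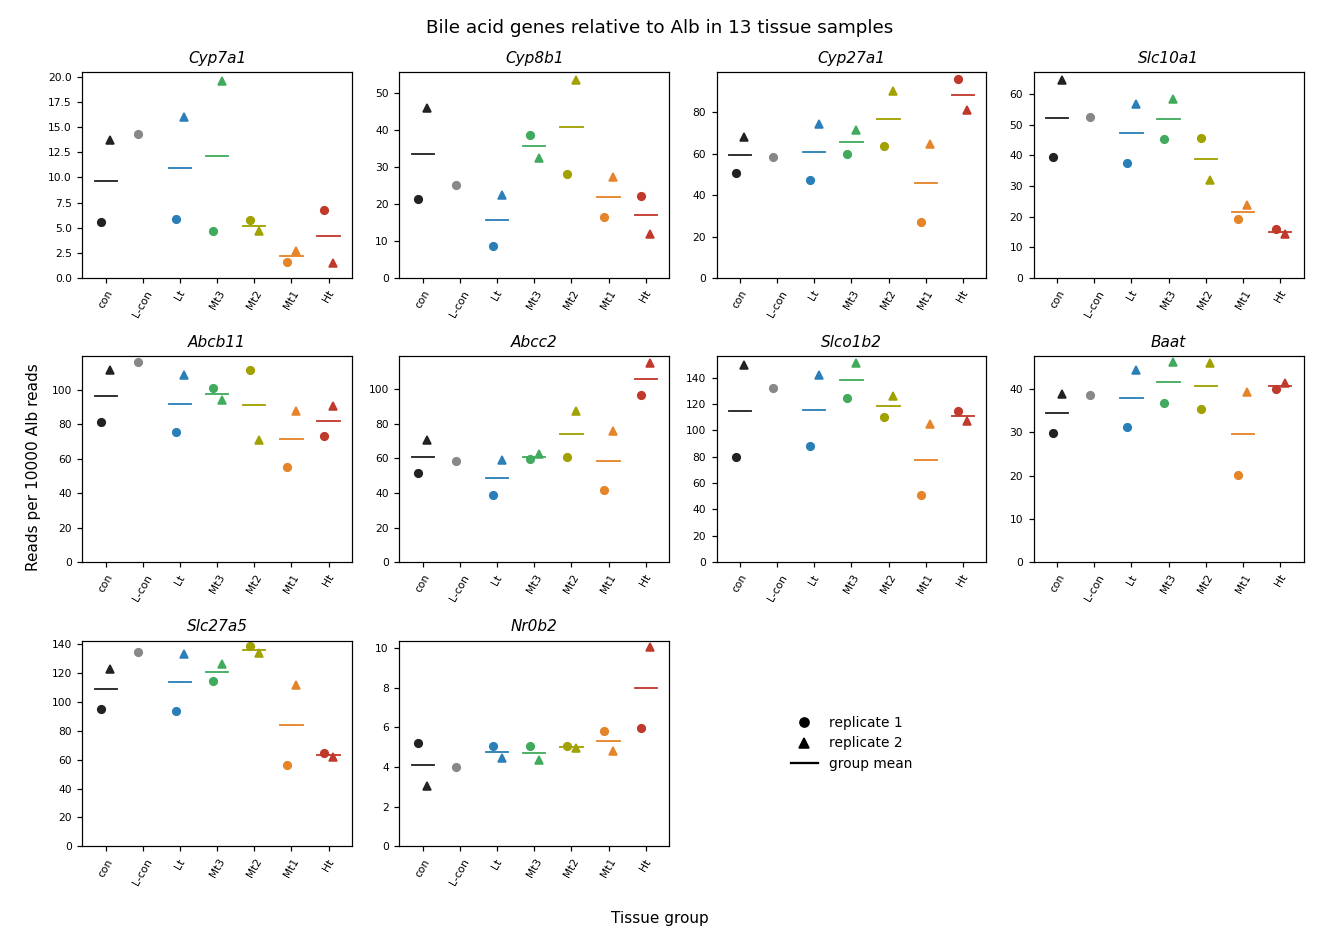
Reads per 10000 Alb reads for the 10 bile acid genes in 13 tissue samples; circles and triangles are the first and second sample of each group, lines are group means and the axes start at 0. Slc10a1 and Slc27a5 lie below con in Ht, Cyp27a1, Abcc2, Baat and, with 2 Ht libraries summed, Nr0b2 lie above it, and the other 4 genes overlap con.

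No bile acid gene passed the test relative to Alb. With the Alb count in place of the library size, the quasi-likelihood test of edgeR (Benjamini-Hochberg) called 0 of 10 lower from con to Lt, against 0.00582% of all genes, 0 of 10 from con to the medium groups, against 0.0873%, and 0 of 10 from con to Ht, against 0.186%. In each of the 3 comparisons 0 of 10 had an unadjusted p below 0.05. From con to Ht 0 of 10 were called higher, against 91% of all genes. The median log2 fold change of the 10 genes was 0.02, -0.03 and -0.14, against 0.93, 2.04 and 5.99 for all genes. From con to Ht, limma on log2 ratios called 1 of 10 lower, against 0.215% of all genes, namely Slc10a1 with -1.73 (adjusted p = 0.0422, limma). By edgeR Slc10a1 had -1.78 (SE 0.91; adjusted p = 0.0633), and over 10 alternatives its adjusted p ranged from 0.000595 to 0.286. The next in size were Cyp7a1 with -1.21 and Cyp8b1 with -0.97, and on the other side Nr0b2 with 0.95 and Abcc2 with 0.79. Over 10 alternatives the value of Cyp7a1 ranged from -2.65 to -0.408 and that of Slc10a1 from -2.78 to -1.38, so these ranges overlapped. With the other 12 hepatocyte genes in place of Alb as the reference, 4 were called lower (Cyp7a1, Cyp8b1, Slc10a1 and Slc27a5), against 1.11% of all genes, and the values of Cyp27a1, Abcc2, Baat and Nr0b2 turned negative, as those of the other 6 genes were. With Ttr as the reference no sign changed from that with Alb: Cyp27a1 had 0.55, Abcc2 0.81, Baat 0.24 and Nr0b2 0.93, and the other 6 were negative. The signs of these 4 genes therefore depend on the reference.

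The con samples differed from each other in several clock genes. Cyp7a1 was 2.09-fold higher in the second con sample and Nr0b2 was 2.03-fold higher in the first, so 2 of 10 genes differed at least 2-fold, against 11.1% of the 14425 genes with 10 or more reads in con, which does not set the bile acid genes apart. Of 8 acute phase genes 3 did so, and of 10 circadian clock genes 5. The clock genes differed in both directions, which their sum partly hides. Nr1d1 was 3.94-fold and Nr1d2 2.65-fold higher in the second con sample, and Cry1 1.935-fold and Arntl 1.59-fold higher in the first. Dbp was 19.8-fold and Per3 8.6-fold higher in the second, each from 5 reads in the first. These clock genes were singled out after their values were seen. The clock genes' summed level stood in con at 303 and 453 CPM, in L-con at 357, in Lt at 216 and 266, in Mt3 at 219 and 248, in Mt2 at 191 and 128, in Mt1 at 174 and 136 and in both Ht samples at 169. Tef, a transcription factor of the clock's output and the most abundant of the list by the mean of all 13 samples, measured 56.2 and 136 CPM in con. Per 10000 Alb reads it stood in con at 4.34 and 12.5, in L-con at 10.1, in Lt at 5.08 and 13.7 and in Mt3 at 5.34 and 11.4. Relative to Alb, Cyp7a1 and Tef were thus lower in the first than in the second sample of con, Lt and Mt3, and so they were in Mt1, where Tef had 5.11 and 16.1. In Ht both were higher in the first sample, Tef with 139 and 101, and in Mt2 they differed in order, Tef having 5.22 and 17.9 and Cyp7a1 5.75 and 4.66. The same order was shown by 9 of the 10 bile acid genes in con and by 9 of 10 in Lt, so it is not particular to Cyp7a1. No clock gene was at 0, the time of day of sampling is not among the labels, and the part of the clock genes in the spread of Cyp7a1 was not tested. From con to Ht 5 of the 10 clock genes were called lower and 1 higher, against 24.1% and 25.8% of all genes tested.

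Most other genes of bile acid metabolism also fell from con to Ht. Of 44 further genes listed, 41 were tested. From con to Ht 35 were called lower and 2 higher by the quasi-likelihood test of edgeR (Benjamini-Hochberg), against 24.1% and 25.8% of all genes tested. The median log2 fold change was -4.72. The same shares stand beside the counts from con to Ht of each part of the list below. Hsd3b7, Slc51a and Gpbar1 did not pass the filter. From con to the medium groups 28 were called lower and 2 higher (median -1.39), against 10.3% and 20.2% of all genes. From the medium groups to Ht the counts were 33 and 0 (median -3.25), against 13.4% and 1.5%. From con to Lt they were 0 and 2 (median -0.62), against 0.256% and 12.4%. Relative to Alb, 1 of the 41 was called lower and 17 higher from con to Ht, against 0.186% and 91% of all genes.

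Of the 14 synthesis genes tested, 11 were called lower from con to Ht and 1 higher. The largest falls among them were those of Akr1d1, the reductase of the steroid nucleus (log2 fold change -7.08), Cyp7b1, the hydroxylase of the alternative route (-6.37), and the ligase Slc27a2 (-6.01). Cyp7b1 stood in con at 171 and 310 CPM, in L-con at 465, in Lt at 160 and 197 and in Ht at 3.26 and 2.54, and L-con was thus above both con samples. Ch25h, which makes 25-hydroxycholesterol, was the gene called higher: it had 1 read in con over both samples, none in L-con, 2.22 and 4.47 CPM in Lt, and 2.78 and 2.68 in Ht. The ratio of Lt to con was 79.5, with a 95% counting interval of 13.95 to 3172. Its adjusted p from con to Lt was 0.0109 (edgeR), and over 12 alternatives it ranged from 1.08e-11 to 0.1. It was 0.0506 without the first con sample, 0.1 without the second and 0.0603 without the second Lt sample, and 9 of the 12 kept the call.

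All 4 further uptake genes were called lower from con to Ht. Their log2 fold changes were -7.41 for Slco1a4, -6.35 for Slco1a1, -3.85 for Ephx1 and -3.02 for Slco2b1. Slco1a4 stood in con at 242 and 83.2 CPM, in L-con at 41.9 and in Lt at 40.6 and 17.8, so that L-con and Lt were below both con samples. Of 5 canalicular genes 4 were called lower: the sterol transporters Abcg8 (-6.22) and Abcg5 (-5.83), the phospholipid floppase Abcb4 (-3.70) and the flippase Atp8b1 (-3.31).

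The genes of export to the blood did not move together. Abcc3 had a log2 fold change of -3.55 from con to Ht and was called lower, whereas Abcc4 rose. Abcc4 stood in con at 7.35 and 4.30 CPM, in L-con at 8.49, in Lt at 10.5 and 17.4, in Mt3 at 15.8 and 18.1, in Mt2 at 19.5 and 25.9, in Mt1 at 22.1 and 33.8 and in Ht at 30.9 and 33.3. Every sample with tumor exceeded both con samples. Abcc3, the gene that was lower in Ht, measured 27.2 and 38.8 CPM in Ht tissue. In the sorted cells, scaled on their own, it had 263, 252 and 233 CPM in F4/80+ and 157, 214 and 96.9 in CD11b+ libraries. They also held Abcc4, at 27.8, 31.0 and 29.9 CPM in F4/80+ and 30.3, 32.8 and 21.4 CPM in CD11b+ libraries, and Ch25h, at 15.6, 14.05 and 21.2 CPM and at 11.9, 16.9 and 18.4 CPM. Of 4 leukocyte markers 3 were called higher from con to Ht as well, against 25.8% of all genes tested. The part of these markers in Abcc4 and Ch25h was not tested. The log2 fold change of Abcc4 was 2.46 to Ht (SE 0.35; adjusted p = 0.000383, edgeR) and 1.26 to Lt (SE 0.34; adjusted p = 0.0387, edgeR), the latter with an adjusted p of 8.36e-05 to 0.28 over 13 alternatives, of which 8 kept the call. It was 0.229 without the second con sample and 0.28 without the second Lt sample. Slc51b had 2 reads in each con sample and -2.13 to Ht (adjusted p = 0.354, edgeR).

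All 12 regulator genes tested were called lower from con to Ht, with a median of -4.86. The largest falls were those of Klb, the co-receptor through which FGF15 acts on hepatocytes (-6.05), Prox1 (-5.47), the nuclear receptor Hnf4a (-5.44) and Nr5a2, which activates Cyp7a1 and Cyp8b1 (-5.14). All 3 detoxification genes were called lower: Sult2a8 (-9.40), Cyp3a11 (-6.56) and Ugt1a1 (-5.96). Sult2a8, a bile acid sulfotransferase, was the pathway gene called lower relative to Alb as well. It had 48.4 and 96.8 reads per 10000 Alb reads in con and 8.14 and 4.60 in Ht. Of 3 genes of ileal bile acid handling, Slc10a2 stood in con at 53.3 and 25.1 CPM, in L-con at 85.6, in Lt at 104 and 64.7 and in Ht at 2.70 and 6.86, and was called lower in Ht (-3.05). Fabp6 and Fgf15 were at 0 in every tissue library.

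Markers of other cells did not all move alike over the same samples. The counts of called markers here and in the next paragraph stand beside shares of all genes tested. These were 12.4% higher from con to Lt, and 24.1% lower and 25.8% higher from con to Ht. The share of cholangiocyte markers called higher in Ht, 16.7%, was below that of all genes. Of 6 cholangiocyte markers 2 were called higher from con to Lt and 1 from con to Ht, led by Spp1, with Krt7 at 0 in the second con sample, and their sum stood in con at 59.2 and 40.9 CPM, in L-con at 151, in Lt at 342 and 422, in Mt3 at 319 and 450, in Mt2 at 299 and 491, in Mt1 at 524 and 470 and in Ht at 394 and 409. Of 8 Kupffer cell markers 3 were called lower and 3 higher from con to Ht, and their sum, led by C1qa, stood in con at 691 and 478 CPM, in L-con at 1343, in Lt at 1133 and 1300, in Mt3 at 953 and 1262, in Mt2 at 1236 and 1022, in Mt1 at 1729 and 930 and in Ht at 932 and 1002. Both sums were higher in Ht than in con, but single markers differed, so neither sum stands for its cell type. Spp1 carried the cholangiocyte sum, and C1qa, Csf1r and Adgre1 were the Kupffer cell markers called higher, while Clec4f, Vsig4 and Cd5l were called lower. Clec4f measured 192 and 154 CPM in con and 24.8 and 43.4 in Ht, and the median log2 fold change of the Kupffer cell markers was -1.12. These markers other than Spp1 and C1qa were singled out after their values were seen.

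Of 5 endothelial markers 3 were called lower from con to Ht, and their sum, led by Cdh5, stood in con at 429 and 303 CPM, in L-con at 334, in Lt at 281 and 268, in Mt3 at 293 and 277, in Mt2 at 275 and 160, in Mt1 at 258 and 195 and in Ht at 131 and 136. Of 4 leukocyte markers 3 were called higher, and their sum, led by Ptprc, stood in con at 22.6 and 11.2 CPM, in L-con at 49.9, in Lt at 69.9 and 181, in Mt3 at 88.0 and 154, in Mt2 at 107 and 191, in Mt1 at 123 and 178 and in Ht at 145 and 181. The endothelial sum was lowest and the leukocyte sum high in Ht, though Cdh5 itself had 55.9 and 56.9 CPM in Ht beside 54.5 in the second con sample. Of 8 acute phase genes 4 were called higher from con to Lt, and from con to Ht 5 were called lower and 1, Lcn2, higher. Lcn2, named after its values were seen, measured 8.59 and 1.90 CPM in con and 32.4 and 55.6 in Ht. Their sum, led by Hp, stood in con at 7092 and 5187 CPM, in L-con at 11292, in Lt at 11522 and 8806, in Mt3 at 9268 and 8982, in Mt2 at 6809 and 3686, in Mt1 at 7361 and 3290 and in Ht at 512 and 826. The acute phase sum was above both con samples in L-con, Lt and Mt3, though not each gene was: Hp was below the first con sample in the second Lt and both Mt3 samples. The part of any of these lists in the result was not tested.

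Cells sorted from Mt2 metastases held little of the other bile acid genes but much of Cyp27a1. It had 1596, 1956 and 1605 reads in the F4/80+ libraries, or 87.8, 104 and 85.8 CPM, and 1816, 1446 and 1899 reads in the CD11b+ libraries, or 96.2, 68.4 and 125 CPM. The populations overlapped. The mean level per length was 126 TPM in F4/80+ cells and 111 TPM in CD11b+ cells, beside 544 TPM in con and 39.2 TPM in Ht, although the sorted cells stand in another table that was scaled on its own. Nr0b2 had 5, 16 and 9 reads in F4/80+ and 24, 17 and 17 in CD11b+ libraries. The other 8 genes had at most 14 reads in any library, and 6 of the 10 had none in at least 1 library.

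Only Cyp27a1 and Nr0b2 passed the filter there, and the quasi-likelihood test of edgeR (Benjamini-Hochberg) called 0 of these 2, against 0.0771% of the 14263 genes tested, with 0 at an unadjusted p below 0.05 and 0 called by DESeq2. The log2 difference of F4/80+ to CD11b+ cells was -0.06 for Cyp27a1 (SE 0.22; adjusted p = 0.904, edgeR) and -0.98 for Nr0b2 (SE 0.49; adjusted p = 0.492, edgeR). Alb measured 229, 122 and 122 CPM in F4/80+ and 48.8, 36.5 and 106 CPM in CD11b+ cells. The 13 hepatocyte genes together had 369, 210 and 211 CPM and 99.1, 79.7 and 263 CPM. Hepatocyte transcripts were thus present in all 6 libraries, at a low level beside tissue. In each F4/80+ library Alb was above Cyp27a1. The summed Kupffer cell markers, led by C1qa, were 10100, 8219 and 7445 CPM in F4/80+ and 6564, 6087 and 9617 CPM in CD11b+ cells. Single markers were further apart, Clec4f measuring 1137, 415 and 256 CPM in F4/80+ and 29.7, 40.4 and 10.6 CPM in CD11b+ cells, a log2 difference of 4.48 (adjusted p = 0.0652, edgeR). What part of Cyp27a1 in Ht tissue comes from such cells was not tested.

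Across the 13 tissue samples the 10 genes varied together in CPM and less so relative to Alb. Over their 45 pairs, Pearson's r of log2(CPM + 1) ran from 0.857 to 0.998 with a median of 0.968, as a description. For the log2 ratio to Alb, which shares the Alb count between both genes of a pair, it ran from -0.814 to 0.923 with a median of 0.442. Among 13918 genes with a mean of at least 1 CPM, the gene most like Slc10a1 was Slco1a1 (r = 0.999), that most like Cyp27a1 was Ephx2 (0.999), that most like Baat was Otc (0.999) and that most like Slco1b2 was Clmn (0.999). Abcb11 was most like Tmprss6 (0.998), Abcc2 like Abca6 (0.998), Slc27a5 like Pigr (0.998), Nr0b2 like Gabbr2 (0.993), Cyp7a1 like 9030622O22Rik (0.99) and Cyp8b1 like Erbb3 (0.982). By ratio to Alb over 13917 genes, Slc10a1 was most like Gm31583 (0.971), Cyp27a1 like Rdh7 (0.967) and Cyp7a1 like Cfhr3 (0.939).

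Promoter sequences were read for 7 of the 10 genes from RefSeq on GRCm38.p6, from 250 bases before to 50 after the transcript start, 300 bases in all; Cyp7a1, Baat and Slc27a5 are not in the table. Both strands were searched for CAAAGTCCA, a motif of the HNF4 type (in 0.475% of 32841 promoters), CAAGGTCA of the NR5A2 type (1.56%) and TTATGTAA, a D-box bound by Tef and its relatives (0.938%). Longer inverted repeats of the FXR and the HNF1 type, each in 0.00913% of promoters, were searched too, which makes 5 motifs. Cyp8b1 held the HNF4-type motif and none of the other 6 genes held any of the 5. The core site AGGTCA, which is part of the NR5A2 and FXR types, stood in Abcb11, Abcc2 and Slco1b2 and, of the 2 starts of Slc10a1 in the table, only in the one not printed here. That is 4 of the 7 with either start counted (16.3% of all promoters). The promoter of Cyp8b1, the gene with the largest difference in Lt, lies on the minus strand at chr9:121916256-121916555, and that of Alb, the reference of the ratios, on the plus strand at chr5:90460620-90460919. That of Slc10a1, the gene with the largest fall in Ht in the edgeR fit as reported, is given for the start that matches the gene's position. It lies on the minus strand at chr12:80968656-80968955. Capitals mark the HNF4-type motif in Cyp8b1 and a pair of D-boxes, one on each strand, in Alb; Slc10a1 held none of the 5.
Cyp8b1: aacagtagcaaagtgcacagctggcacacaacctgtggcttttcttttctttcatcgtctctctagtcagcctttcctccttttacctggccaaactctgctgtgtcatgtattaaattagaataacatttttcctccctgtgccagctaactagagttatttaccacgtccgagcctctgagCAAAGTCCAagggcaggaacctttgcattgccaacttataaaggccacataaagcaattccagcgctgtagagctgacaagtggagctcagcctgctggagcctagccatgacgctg
Alb: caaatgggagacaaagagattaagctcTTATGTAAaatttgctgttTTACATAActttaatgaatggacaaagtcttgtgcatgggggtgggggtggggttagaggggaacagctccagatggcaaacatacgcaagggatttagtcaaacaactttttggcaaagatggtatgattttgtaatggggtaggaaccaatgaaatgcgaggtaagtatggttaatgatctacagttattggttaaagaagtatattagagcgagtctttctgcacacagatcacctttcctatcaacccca
Slc10a1: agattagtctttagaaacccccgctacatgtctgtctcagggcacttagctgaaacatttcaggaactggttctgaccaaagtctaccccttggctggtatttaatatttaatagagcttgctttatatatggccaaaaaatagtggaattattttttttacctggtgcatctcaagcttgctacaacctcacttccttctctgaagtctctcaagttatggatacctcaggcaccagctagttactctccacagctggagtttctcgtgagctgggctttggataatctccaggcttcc
A match describes letters in this window and not a bound site, and the lack of an exact match does not show that a site is absent.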

How the data were processed

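Per the labels, bulk RNA was sequenced from mouse liver and metastasis tissue (14 libraries) and from sorted F4/80+ and CD11b+ cells (6 libraries). The authors deposited raw read counts per gene with gene length in base pairs; CASAVA, HISAT2 2.0.5 and featureCounts 1.5.0-p3 are named. The 2 Ht libraries called identical were summed, which leaves 13 tissue samples in 7 groups. Tissue libraries hold 16032085 to 18246623 counts and sorted ones 17785496 to 20548370.

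In R 4.3.3, edgeR 4.0.16 was used with filterByExpr, TMM and the quasi-likelihood F test, separately for tissue and sorted cells. Comparisons were con to Lt, to the average of Mt3, Mt2 and Mt1, and to Ht, the medium groups to Ht, and F4/80+ against CD11b+ cells. P-values were adjusted over all genes tested. A call needs an adjusted p of 0.05 or less and a log2 fold change of 1 or more in size. For levels relative to Alb the fit used the Alb count as library size, and limma 3.58.1 was run on log2 ratios with an offset of 0.5. L-con (1 library) was compared by values with exact Poisson intervals. TPM used the deposited gene length. The fits were tested on simulated data.

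Alternatives were DESeq2 1.42.0, total-count scaling, other filters, no fold threshold, only the groups compared, Ht handled otherwise, the replicate number as a block, other references than Alb, and each sample left out. All 10 genes are named. Of each further bile acid list, the 4 genes with the largest change from con to Ht and those called against the list's majority are named, of the marker lists the most abundant gene and any at 0, and the genes most like each of the 10 by Pearson's r. Gene lists cover other bile acid genes, hepatocytes, cholangiocytes, Kupffer cells, endothelium, leukocytes, the acute phase and the clock; transferrin is listed as Trf. The 10 genes and the lists were chosen with earlier results of these data known.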

Additional observations from a re-analysis of the deposited data

How the results depend on the processing

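From con to Ht, 10 of 10 bile acid genes were called lower under each alternative. The count from con to Lt was 0 as reported, against 0.256% of all genes tested. With DESeq2 it was 1 (0.966% of all genes) and with total-count scaling 1 (0.128%). It was 2 with no filter (1.28%) and 2 with only the groups compared (2.1%). With Ht as 3 libraries it was 1 (0.408%) and with the replicate number as a block 1 (0.628%). Exchanging the con numbers of that block gave 1 (0.611%). From con to the medium groups the count was 8 as reported, against 10.3% of all genes. It was 5 with total-count scaling (3.35%) and 1 with Mt as a single group of 6 (5.6%). Leaving out each sample in turn gave 0 to 10 there and 0 to 10 from the medium groups to Ht. In the count of genes 2-fold lower in L-con it gave 0 to 1. Where a group is left with 1 sample, it is assumed to vary like the other groups.

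Relative to Alb from con to Ht, 0 genes were called lower as reported, against 0.186% of all genes. With the other 12 hepatocyte genes as reference 4 were called lower (1.11% of all genes), and with Ttr 1 (0.308%). It was 1 with limma (0.215%), 1 with Ht as 3 libraries (0.282%) and 1 with the replicate block (0.25%). With the 12 genes the sign turned for Cyp27a1 (-0.43), Abcc2 (-0.21), Baat (-0.76) and Nr0b2 (-0.0701). Slco1b2 turned to 0.0236 with limma and 0.0398 with the block, and leaving out samples gave -0.43 to 0.48 for Slco1b2 and -0.44 to 0.0137 for Abcb11. With TMM, Nr0b2 from con to Lt ranged from -1.20 to 0.11 with samples left out. In sorted cells Cyp27a1 turned to 0.0557 with total-count scaling and ranged from -0.26 to 0.17 with libraries left out. The cause was not tested.

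Of the values for single genes, 885 kept direction and side of the threshold with TMM scaling, 23 passed it newly, 60 no longer did and 1 reversed. Relative to Alb these were 83, 8, 0 and 9. Ratios to Alb from con to Lt and to the medium groups are given as values and counts only, a choice made after 29 of 110 and 27 of 140 alternative values were seen to change sign. Exchanging the con numbers and removing both medium samples poorest in Alb were chosen after seeing the data. At a floor of 0.164 to 0.187 CPM, the bile acid genes were measurable in each tissue sample, whereas Ch25h and Slc51b in con were at or under it.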
